A study of Mus musculus with 36 samples.

Results

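The inflammasome and interleukin 1 genes are 10 genes chosen by their symbols, which are *Nlrp3*, *Nlrp1b*, *Aim2*, *Pycard*, *Casp1*, *Casp4*, *Gsdmd*, *Il1a*, *Il1b* and *Il18*. All 10 were found among the 55450 genes listed at 1 month, the 53379 listed at 2 months and the 54146 listed at 3 months. RNA-seq reads were counted in the cerebellum (Cb) and in the forebrain/midbrain (F/M) of Tpp1-/- mice, a model of the childhood lysosomal disease CLN2, and of unaffected siblings. *Tpp1*, the gene of a protease of the lysosome, carries a targeted mutation in these mice, which are bred from Tpp1+/- parents. Each of the 12 groups of age (1, 2 or 3 months), region and genotype held 3 mice, and the 36 libraries held 10609896 to 29942380 counts, with a median of 21049839. Controls were wild type, except that control replicate 3 at 1 month was Tpp1+/- in both regions. The mice of 2 months were all male, and each group of the other ages held 1 female and 2 males.

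Inflammasomes are protein complexes of the cytosol that form when a sensor such as *Nlrp3*, *Nlrp1b* or *Aim2* meets a danger signal. *Nlrp3* and *Aim2* recruit the adaptor *Pycard* (ASC), which gathers the protease *Casp1*. *Casp1* then cuts the precursors of *Il1b* and *Il18* into active cytokines and cuts *Gsdmd*, whose fragment opens pores in the cell membrane. *Casp4* starts another route to *Gsdmd* after it binds bacterial lipopolysaccharide, and *Il1a* is an interleukin 1 that needs no cut by *Casp1* to signal. In the brain most of these genes are known from microglia, the resident macrophages. Assembly and cutting act on proteins, which counts of RNA do not measure.

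The 10 genes lie on chromosomes 1, 2, 7, 9, 11 and 15 of the mouse genome (GRCm38). *Nlrp3* (chr11:59541568-59566956, plus strand) and *Nlrp1b* (chr11:71153102-71230733, minus strand) share a chromosome. *Casp1* (chr9:5298517-5307265, plus strand) and *Casp4* (chr9:5308828-5336783, plus strand) are neighbours, and *Il18* (chr9:50554827-50581840, plus strand) lies further along. *Il1a* (chr2:129299610-129309972, minus strand) and *Il1b* (chr2:129364570-129371139, minus strand) also lie side by side. *Aim2* spans chr1:173350879-173466040 on the plus strand and *Gsdmd* spans chr15:75862327-75867408 on the plus strand. *Pycard* (chr7:127989708-127993867, minus strand) is on the chromosome of *Tpp1*, 22.237 Mb away. Some reads of these genes cannot be assigned with certainty: 1.451% of the 50-base stretches of *Nlrp1b* transcripts also occur in *Nlrp1a* or *Nlrp1c-ps*. In addition, the opposite strand carries other transcripts over 485 exon bases of *Pycard* and over 222 of *Il1a*. The library kit keeps the strand, and the file headers give a strand setting for the counting.

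The promoters of *Pycard*, *Nlrp1b* and *Aim2* are shown because they are the members whose 250 bases before the transcription start hold the letters GAGGAAGT, or the same letters on the other strand. This is a binding motif of PU.1, a transcription factor of the macrophage lineage that includes microglia. The sequences are from RefSeq (GRCm38.p6), which had a promoter for 9 of the members. Capitals mark GAGGAAGT or its reverse complement and, in *Pycard* and *Nlrp1b*, the C/EBP motif TTNNGCAA. The 3 sequences run 5′ to 3′ in the direction of the gene.
*Pycard*, chr7:127993868-127994117, minus strand: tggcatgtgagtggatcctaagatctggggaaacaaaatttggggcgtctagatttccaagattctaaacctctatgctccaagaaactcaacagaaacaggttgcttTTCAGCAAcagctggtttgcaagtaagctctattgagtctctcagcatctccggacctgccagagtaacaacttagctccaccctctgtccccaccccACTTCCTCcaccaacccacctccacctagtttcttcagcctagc
*Nlrp1b*, chr11:71230734-71230983, minus strand: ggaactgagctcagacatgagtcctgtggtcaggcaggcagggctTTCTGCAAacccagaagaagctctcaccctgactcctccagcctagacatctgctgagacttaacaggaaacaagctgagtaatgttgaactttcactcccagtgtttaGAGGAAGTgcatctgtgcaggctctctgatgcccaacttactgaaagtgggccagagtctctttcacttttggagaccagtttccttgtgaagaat
*Aim2*, chr1:173420354-173420603, plus strand: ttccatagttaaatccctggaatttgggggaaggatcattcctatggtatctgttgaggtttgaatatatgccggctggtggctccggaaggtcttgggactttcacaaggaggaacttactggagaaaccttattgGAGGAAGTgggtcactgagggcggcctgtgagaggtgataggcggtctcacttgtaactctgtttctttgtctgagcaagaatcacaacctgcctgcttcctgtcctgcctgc

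The PU.1 motif started 44 bases before the start site in *Pycard*, 96 bases before it in *Nlrp1b* and 113 bases before it in *Aim2*. Of 32851 mouse promoters of the same length, 2.441% held GAGGAAGT on either strand and 9.564% held TTNNGCAA. A second listed start of *Nlrp1b* held neither. The interferon response motif, by its name alone (2.977% of promoters), and the STAT motif TTCNNNGAA (7.02%) were in none of the members' promoters. The AP-1 motif TGANTCA (6.749%) was found 12 bases before the start of *Il1a*, and the kappa B motif (3.899%), by its name alone, in *Casp4* and *Nlrp3*. A second listed start of *Nlrp3* held none of these motifs. These matches describe letters, and no binding was measured.

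The targeted gene followed the labels. *Tpp1* ranged from 16.05 to 27.8 CPM over the 18 Tpp1-/- libraries and from 42.1 to 111 CPM over the 18 control libraries, with log2 fold changes of -2.12 to -1.31 in the 6 comparisons of genotype. CPM are a library's counts relative to its total, after scaling with TMM. The regions also followed their labels: the summed level of 7 cerebellar markers was 4154 to 5929 CPM in Cb and 267.6 to 341.9 CPM in F/M. Markers of the forebrain summed to 291.6 to 395.1 CPM in F/M and to at most 11.8 CPM in Cb.

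*Il1b*, *Il1a*, *Casp4* and *Nlrp1b* were counted near the limit of detection, set here at 3 counts in a library. Over the 36 libraries *Il1b* had 0 to 13 counts with a median of 2, and 25 libraries were at 3 counts or fewer. The other interleukin 1, *Il1a*, had 0 to 20 counts with a median of 6.5. *Casp4* had 2 to 19 counts, *Nlrp1b* 2 to 23 and *Nlrp3* 2 to 32. The counts of *Casp1* were 7 to 94, those of *Pycard* 16 to 71, those of *Aim2* 17 to 57 and those of *Gsdmd* 18 to 65. *Il18* stood apart with 122 to 420 counts. At each age 8 of the 10 genes had enough counts to be tested: *Casp4* and *Il1b* fell under the filter at 1 and 2 months, and *Il1a* and *Il1b* fell under it at 3 months. At 3 months, the one age at which *Casp4* passed, its counts were highest in the Tpp1-/- F/M libraries.

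Per length of transcript, *Il18* was the most abundant of the 10 genes in every control group. In F/M of 3 months it stood at 15.99 ± 0.464 CPM per kilobase (SD, n = 3), and *Casp1* followed at 1.602 ± 0.273 CPM per kilobase. *Gsdmd* (0.953 ± 0.289 CPM per kilobase), *Pycard* (0.665 ± 0.0634) and *Aim2* (0.579 ± 0.0499) came next on this scale. *Nlrp3* stood at 0.324 ± 0.0566 CPM per kilobase. *Il1b*, *Casp4*, *Il1a* and *Nlrp1b* were lowest, between 0.0872 and 0.144 CPM per kilobase. In this order the SDs of *Gsdmd* and *Pycard*, of *Pycard* and *Aim2*, of *Il1b* and *Casp4*, and of *Casp4* and *Il1a* overlapped, while those of the other neighbours did not. In Cb of 3 months *Il18* stood at 9.27 ± 1.13 CPM per kilobase and *Casp1* at 1.597 ± 0.663. The exon length counted for *Gsdmd* was 1776 bases at 2 months and 2377 at the other ages, so its levels were not set beside each other across ages.

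**Figure D1:**
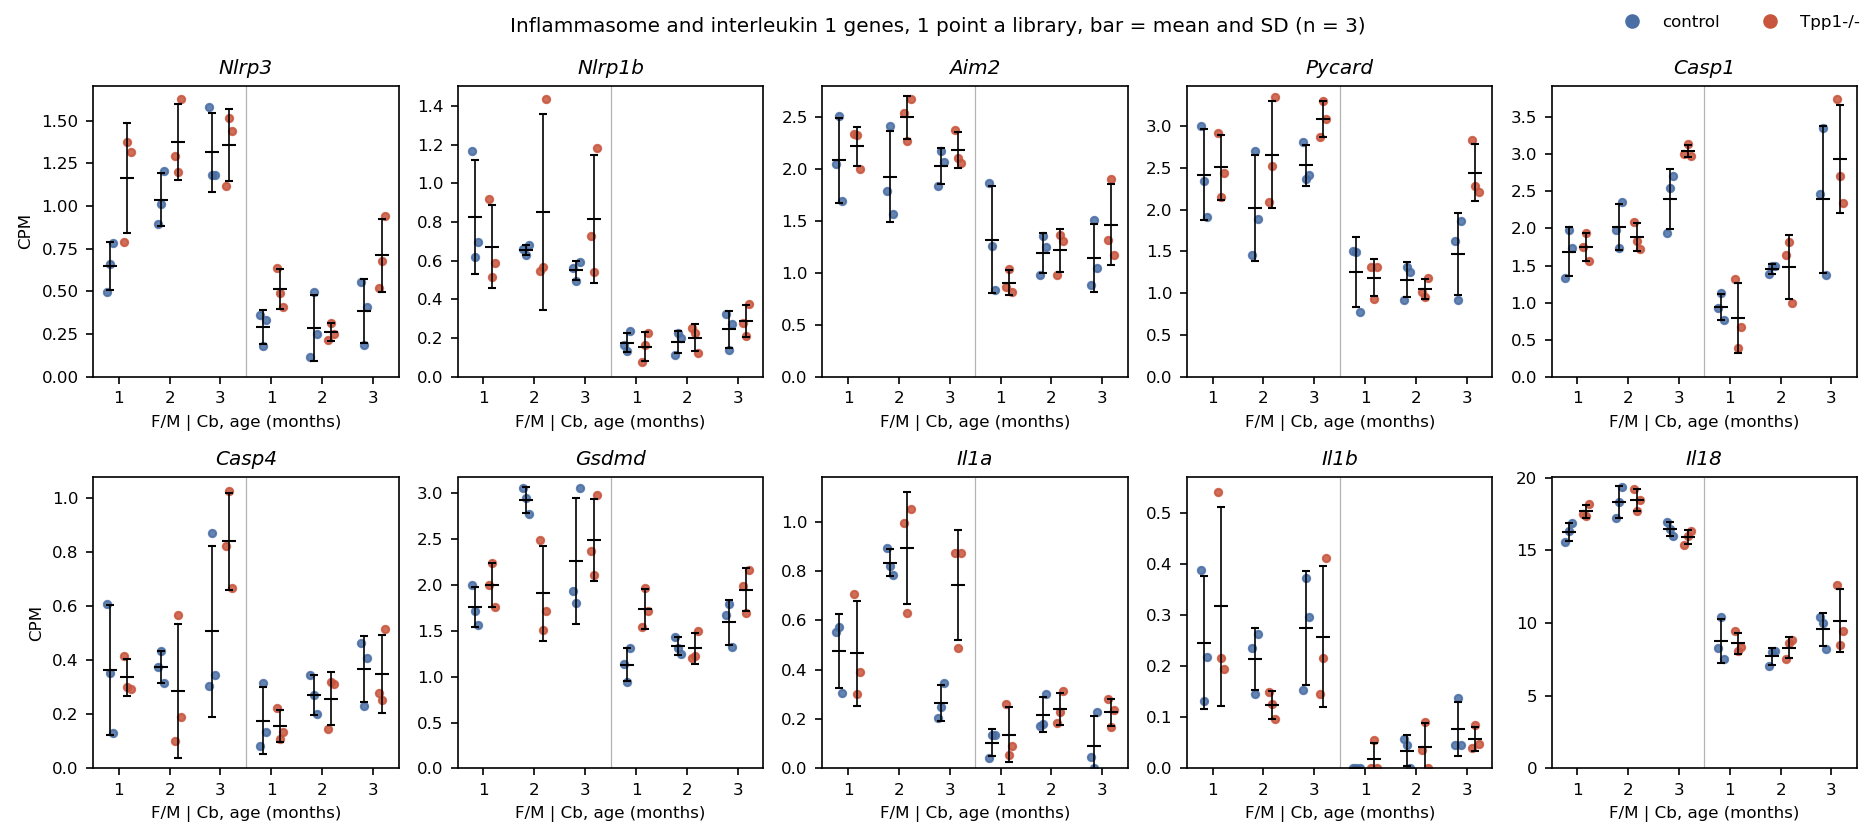
Level of each gene in CPM (vertical axis from 0, its own scale in each panel) by age and region, with 1 point for each library, control in blue and Tpp1-/- in red, and the mean ± SD of 3 libraries in black. F/M is left of the grey line and Cb right of it. The control points of *Nlrp3*, *Nlrp1b*, *Pycard*, *Gsdmd*, *Il18* and *Il1b* sit lower in Cb than in F/M at all 3 ages, those of *Il1b* near the limit of detection. The colours overlap in most groups.

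The regions were compared within the controls to see where these genes are expressed. The 8 genes tested were called lower in Cb than in F/M at 1 month by the rule for differentially expressed genes, a change of 1.5-fold or more whose adjusted p stays below 0.1 (edgeR's quasi-likelihood test, Benjamini-Hochberg over all genes tested). At 2 months 7 of 8 were called lower and at 3 months 5 of 8. Over all genes tested, 36.9% were called in this comparison at 1 month, 39.3% at 2 months and 37.7% at 3 months, and 21.1%, 21.9% and 19.9% were called lower in Cb. The filter fixes part of the members' counts. *Nlrp1b* at each age, and *Nlrp3* and *Il1a* at 1 and 2 months, had enough counts to be tested only through their F/M libraries, so their lower level in Cb was fixed in part by the filter. *Aim2*, *Casp1*, *Pycard*, *Gsdmd* and *Il18* passed the filter on either region's libraries.

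Of the sensors, *Nlrp3* stood at 0.499, 0.661 and 0.782 CPM in the 1-month controls of F/M, while those of Cb stood at 0.365, 0.180 and 0.336 CPM. It was lower in Cb at every age, by log2 fold changes of -1.12, -1.76 and -1.77. *Nlrp1b*, a sensor of bacterial proteases, fell by 2.13 on the log2 scale at 1 month (SE 0.445, adjusted p = 0.000841), by 1.79 at 2 months and by 1.15 at 3 months. Its Cb controls held 3 to 7, 2 to 5 and 3 to 7 counts at these ages, near the limit of detection. *Aim2*, which binds double-stranded DNA, fell by 0.67, 0.68 and 0.81. Its control groups overlapped between the regions at 1 month. The adaptor *Pycard* fell by 0.95, 0.78 and 0.78, and its control groups did not overlap at any age. The share of all genes whose control groups did not overlap between regions was 65.9%, 67.6% and 63.6%.

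*Il18* gave the most precise regional difference. At 1 month the F/M controls had 15.6, 16.4 and 16.9 CPM, and the Cb controls had 8.26, 10.5 and 7.52 CPM. The log2 fold change was -0.90 ± 0.124 (SE, adjusted p = 1.65e-05) at 1 month, -1.24 ± 0.0982 (adjusted p = 1.92e-09) at 2 months and -0.79 ± 0.143 (adjusted p = 0.000377) at 3 months. *Il1a* was lower in Cb by 2.13 on the log2 scale at 1 month (adjusted p = 0.00748) and by 1.90 at 2 months (adjusted p = 0.000186), and it was under the filter at 3 months. Its Cb controls held 1 to 4 counts at 1 month and 3 to 6 at 2 months, near the limit of detection. *Il1b* had 7, 3 and 5 counts in the F/M controls of 1 month and no count in the 3 Cb controls. In the Cb controls it had 1, 1 and 0 counts at 2 months and 1, 3 and 1 at 3 months.

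*Casp1* and *Gsdmd* were the members whose call was lost with age. At 1 month the F/M controls had 1.33, 1.98 and 1.74 CPM of *Casp1*, while the Cb controls had 0.932, 1.13 and 0.772 CPM, a log2 fold change of -0.86 (adjusted p = 0.0389). At 2 months the value was -0.47 (adjusted p = 0.0753), under the 1.5-fold minimum. At 3 months the F/M controls were at 1.94, 2.55 and 2.71 CPM and the Cb controls at 2.46, 3.35 and 1.37 CPM, which overlap. *Gsdmd* fell by 0.62 at 1 month and by 1.14 at 2 months, and its value of -0.52 at 3 months missed the minimum (adjusted p = 0.0962). Its control groups still did not overlap at 3 months, as for 63.6% of all genes. The call of *Gsdmd* at 1 month was lost when libraries were scaled by their totals alone or when the filter was left out. Whether these regional differences themselves changed with age was not tested.

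**Figure D2:**
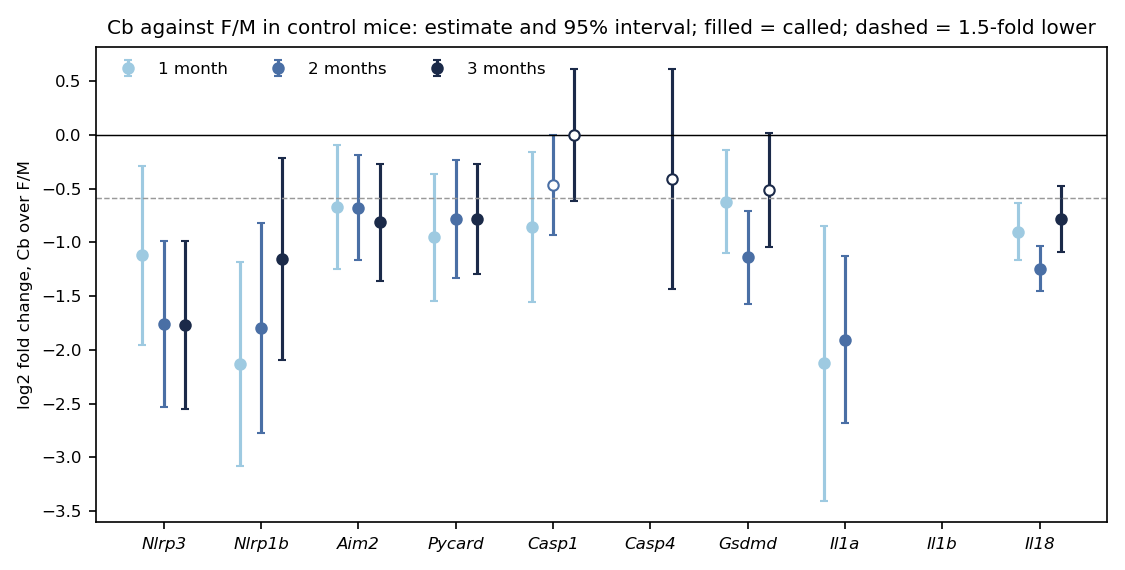
Log2 fold change of Cb over F/M in control mice (vertical axis) for each gene tested, with its 95% interval, 1 colour for each age, filled where called and open where not. The dashed line marks a level 1.5-fold lower. *Nlrp3*, *Nlrp1b*, *Aim2*, *Pycard* and *Il18* are called at all 3 ages, and *Casp1* moves from -0.86 at 1 month to about 0 at 3 months.

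Microglia markers were lower in Cb as well: all 26 were called lower at each age, with median log2 fold changes of -1.35, -1.47 and -1.37, and the middle summed level of the Cb controls was 0.428, 0.3995 and 0.409 of that of the F/M controls. Fewer cells of a type and less RNA per cell cannot be told apart in such tissue samples. The part of the microglia content in the members' regional differences was not tested.

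The comparison of Tpp1-/- with control asks whether the RNAs of the inflammasome follow the inflammation of this disease. None of the 8 genes tested was called in any of the 6 comparisons, 48 tests in all, and the smallest adjusted p was 0.160. Among all genes tested in F/M the share called was 0.0112%, 0.737% and 0.464% from the youngest to the oldest age, and in Cb it was 0.0112%, 2.05% and 0.859%. Unadjusted p-values under 0.05 were found in 5 of the 48 tests. Over all genes such p-values made up 1.89%, 16.9% and 5.94% in F/M and 7.66%, 9.67% and 6.49% in Cb. The groups did not overlap in 8 of the 48 tests, beside 14.8%, 18.3% and 24.1% of all genes in F/M and 7.97%, 18.1% and 8.67% in Cb. DESeq2, limma-voom and edgeR without the filter also called none. The 95% interval of the fold change lay within 1.5-fold in either direction in 10 of the 48 tests and within 2-fold in 29, so in the remaining tests a change of 2-fold lies inside the interval at this depth.

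**Figure D3:**
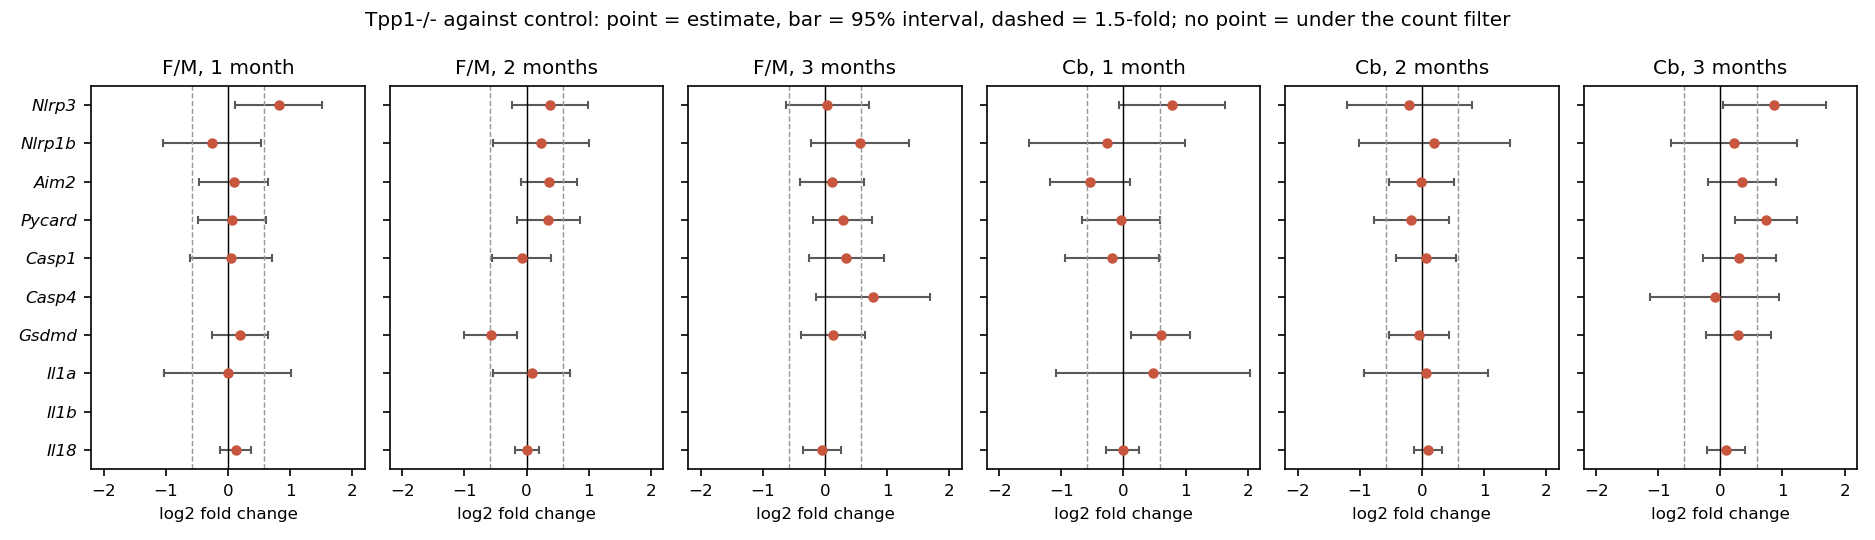
Log2 fold change of Tpp1-/- over control (horizontal axis) for each gene, in 1 panel for each region and age, with 95% intervals. Dashed lines mark 1.5-fold in each direction, and genes under the count filter have no point. The intervals of *Il18* are the narrowest, and 5 intervals, those of *Nlrp3* at F/M 1 month and Cb 3 months, *Gsdmd* at Cb 1 month and F/M 2 months and *Pycard* at Cb 3 months, do not reach 0.

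*Nlrp3*, the sensor of membrane damage and of disturbed ion balance, was 0.499, 0.661 and 0.782 CPM in the controls and 0.791, 1.38 and 1.32 CPM in the Tpp1-/- libraries of F/M at 1 month. The groups did not overlap, as for 14.8% of all genes there. The log2 fold change was 0.82 (95% interval 0.11 to 1.52, unadjusted p = 0.0257, adjusted p = 1 by edgeR), and without the heterozygous control it was 0.98. In Cb of the same age the controls were at 0.365, 0.180 and 0.336 CPM and the Tpp1-/- libraries at 0.638, 0.493 and 0.407 CPM, again without overlap, which 7.97% of all genes showed. The log2 fold change in Cb was 0.79 (-0.07 to 1.64). At 2 months its log2 fold change was 0.38 for F/M and -0.21 for Cb. At 3 months the F/M groups overlapped at a log2 fold change of 0.04, and in Cb the controls of 0.557, 0.183 and 0.410 CPM overlapped the Tpp1-/- libraries of 0.519, 0.677 and 0.939 CPM. That last difference was 0.87 on the log2 scale (0.04 to 1.70, adjusted p = 0.725), and it rested on 4 to 20 counts in a library. Without control replicate 2 it was 0.54.

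*Nlrp1b* and *Aim2* showed no call and no group that stood clear of the other. The log2 fold changes of *Nlrp1b* ranged from -0.26 to 0.56 over the 6 comparisons, with 95% intervals that reached from -1.52 to 1.41. In F/M at 2 months its Tpp1-/- libraries were at 0.548, 0.568 and 1.43 CPM beside controls of 0.658, 0.628 and 0.681 CPM, so that the spread came from replicate 3, the library with the lowest total of all. *Aim2* ranged from -0.54 in Cb at 1 month to 0.36 in F/M at 2 months, and 5 of its 6 intervals lay within 2-fold.

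The adaptor *Pycard* gave the lowest unadjusted p among the members tested for the genotype. In Cb at 3 months it was 1.62, 0.917 and 1.87 CPM in the controls and 2.83, 2.29 and 2.21 CPM in the Tpp1-/- libraries, from 20 to 71 counts. The groups did not overlap, as for 8.67% of all genes there. The log2 fold change was 0.73 (95% interval 0.23 to 1.24, unadjusted p = 0.00764, adjusted p = 0.380), and the adjusted p ranged from 0.130 to 1.00 over the alternatives and left-out libraries. Without control replicate 2, the lowest library, it was 0.49. In F/M at 3 months the controls were at 2.80, 2.36 and 2.41 CPM and the Tpp1-/- libraries at 2.86, 3.30 and 3.09 CPM, without overlap (24.1% of all genes) at a log2 fold change of 0.28. At 1 and 2 months the values lay between -0.17 and 0.35 and the groups overlapped.

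*Casp1*, the protease at the centre of the complex, was 1.94, 2.55 and 2.71 CPM in the controls and 3.01, 3.14 and 2.98 CPM in the Tpp1-/- libraries of F/M at 3 months. The groups did not overlap, as for 24.1% of all genes there, and the log2 fold change was 0.34 (-0.26 to 0.95, adjusted p = 1). Without control replicate 1, the lowest library, it was 0.20. In the other comparisons it lay between -0.18 and 0.30 with overlapping groups, and every interval lay within 2-fold. *Casp4* was tested at 3 months only. There it had 6, 14 and 7 counts in the F/M controls and 17, 19 and 13 in the Tpp1-/- libraries, with overlap and a log2 fold change of 0.77 (-0.15 to 1.69), and -0.09 in Cb.

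*Gsdmd*, the pore former, lay on opposite sides in separate comparisons. In Cb at 1 month it was 1.13, 0.946 and 1.31 CPM in the controls and 1.54, 1.97 and 1.72 CPM in the Tpp1-/- libraries, a log2 fold change of 0.60 (0.13 to 1.08, unadjusted p = 0.0166, adjusted p = 0.630). In F/M at 2 months it was 3.06, 2.95 and 2.78 CPM in the controls and 2.49, 1.51 and 1.72 CPM in the Tpp1-/- libraries, a log2 fold change of -0.58 (-1.003 to -0.15, unadjusted p = 0.0102, adjusted p = 0.160). Neither pair of groups overlapped, which 7.97% and 18.3% of all genes showed. Without Tpp1-/- replicate 1 the value in F/M at 2 months was -0.87. The other 4 values lay between -0.04 and 0.29.

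*Il18* was measured well enough to bound its change. In F/M at 2 months the controls were at 17.2, 18.4 and 19.4 CPM and the Tpp1-/- libraries at 19.2, 17.7 and 18.5 CPM, a log2 fold change of 0.02 (-0.18 to 0.21). In Cb at 3 months the controls were at 10.4, 9.999 and 8.24 CPM and the Tpp1-/- libraries at 12.6, 8.47 and 9.44 CPM, a log2 fold change of 0.09 (-0.22 to 0.40). Over the 6 comparisons the values lay between -0.05 and 0.12, and all 6 intervals lay between 0.783-fold and 1.32-fold. The F/M groups of 1 month did not overlap, with controls of 15.6, 16.4 and 16.9 CPM and Tpp1-/- libraries of 17.5, 17.4 and 18.2 CPM, at a log2 fold change of 0.12.

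*Il1a* at 3 months was under the count filter and had no place in the main test. Its counts in F/M were 4, 4 and 7 in the controls and 18, 9 and 17 in the Tpp1-/- libraries, which did not overlap. The fit without the filter gave a log2 fold change of 1.46 (95% interval 0.38 to 2.55, unadjusted p = 0.00820, adjusted p = 0.494). The adjusted p ranged from 0.494 to 1 over this fit and the 4 fits with a library left out in which the gene passed the filter. In Cb of that age the counts were 1, 0 and 5 beside 7, 4 and 5. At 2 months *Il1a* was 0.893, 0.821 and 0.786 CPM in the F/M controls and 0.996, 0.631 and 1.05 CPM in the Tpp1-/- libraries, and its log2 fold changes at 1 and 2 months lay between -0.01 and 0.48. *Il1b* was under the filter at every age. In F/M at 3 months it had 3, 6 and 6 counts in the controls and 3, 4 and 8 in the Tpp1-/- libraries, and in Cb 1, 3 and 1 beside 1, 2 and 1, so that no difference was detectable at this depth.

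The effect of the genotype was then compared between regions and ages. No member was called in the difference of the effect between Cb and F/M at any age, where 0.0%, 2.97% and 0.00581% of all genes were called at 1, 2 and 3 months. A joint fit of all 36 libraries over 18322 genes gave the change of the effect with age for 9 members, *Il1b* being under its filter. None was called between 1 and 3 months (0.153% of all genes in F/M, 0.458% in Cb) or between 2 and 3 months (0.393% and 1.44%). *Il1a* in F/M had a difference of 1.48 between 3 and 1 months (unadjusted p = 0.0267, adjusted p = 0.870) and of 1.39 between 3 and 2 months (unadjusted p = 0.0285, adjusted p = 0.531). *Pycard* in Cb had differences of 0.78 (adjusted p = 0.621) and 0.90 (adjusted p = 0.603). *Gsdmd* in F/M differed by 0.72 between 3 and 2 months (adjusted p = 0.482), and *Aim2* in Cb by 0.89 between 3 and 1 months (adjusted p = 0.520). In such differences the age cannot be told apart from the annotation and counting used for it.

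Another 65 genes of the pathway were followed as a list of sensors, caspases and pore proteins, regulators, ligands and antagonists, receptors and signalling proteins. At 1 month 51 were tested and none was called in either region. At 2 months 49 were tested and 1 was called, lower, in each region, beside 0.737% of all genes for F/M and 2.05% for Cb. At 3 months 4 of 49 rose in F/M, where 0.464% of all genes were called, and 1 rose in Cb, where 0.859% were called. At that age the list's median log2 fold change was 0.05 for F/M and -0.003 for Cb, while the median of all genes was -0.003 for both. None of the caspases, pore proteins, ligands, receptors or signalling proteins was called at any age, *Il1r1*, *Myd88* and *Casp8* included.

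The genes called were sensors and regulators. *Ifi204*, an interferon-induced DNA sensor of the family of *Aim2*, was 0.357, 0.187 and 0.542 CPM in the controls and 1.84, 1.89 and 1.65 CPM in the Tpp1-/- libraries of F/M at 3 months. It rose by 2.25 ± 0.391 on the log2 scale there (SE, adjusted p = 0.0223) and by 2.16 ± 0.386 in Cb (adjusted p = 0.0160). These control levels are near the limit of detection, with as few as 3 counts in F/M and 5 in Cb. At this age *Ifi204* passed the count filter only through the Tpp1-/- libraries, where it was high, so its rise was fixed in part by the filter. *Irgm1*, an interferon-induced GTPase of the cell's own defence, was 9.94, 10.07 and 10.1 CPM in the controls and 18.3, 20.01 and 17.1 CPM in the Tpp1-/- libraries of F/M, a rise of 0.88 ± 0.129 (adjusted p = 0.00645). *Trim30a*, reported to restrain *Nlrp3*, rose by 1.13 ± 0.192 in F/M (adjusted p = 0.0198), and its value of 0.72 in Cb had an adjusted p of 0.182.

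The remaining call was *Trim30d*, whose direction in F/M differed between 2 and 3 months, ages that cannot be told apart from their processing. In F/M it fell by 2.39 on the log2 scale at 2 months (adjusted p = 0.0108), from 1.51, 2.22 and 1.42 CPM to 0.249, 0.505 and 0.191 CPM. At 3 months it rose by 1.25 (adjusted p = 0.0477), from 1.22, 0.684 and 1.13 CPM to 2.43, 2.92 and 2.01 CPM. In Cb it fell by 2.14 at 2 months (adjusted p = 0.000844), and its value at 3 months was 0.18. At 2 months *Trim30d* passed the count filter only through the control libraries, and as few as 2 counts stood in a Tpp1-/- library of F/M. At 1 month the log2 fold change for F/M was -1.42 (adjusted p = 1). The value for Cb at that age was -2.18 (adjusted p = 0.630), and neither was called. *Trim30a* and *Trim30d* are related genes, so reads may be split between them, and both lie on the chromosome of *Tpp1*, 1.28 and 1.237 Mb away. Whether sequence of another mouse strain still surrounds the targeted gene in these mice, and so enters the values of both genes, was not tested.

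Microglia markers moved in the same mice at 3 months. Of 26 markers 6 rose in F/M and 15 rose in Cb, with median log2 fold changes of 0.40 and 0.98, beside 0.20 and 0.29 for the 8 members tested. The summed level of the markers was 702 to 747 CPM in the F/M controls and 937 to 1022 CPM in the Tpp1-/- libraries. In Cb it was 251 to 309 CPM in the controls and 517 to 775 CPM in the Tpp1-/- libraries, and no marker was at 0. At 1 and 2 months none of the 26 markers was called. Their summed level still separated the genotypes in Cb at 1 month, at 224.6 to 273.9 CPM in the controls and 284.4 to 316.3 CPM in the Tpp1-/- libraries, where *Nlrp3* and *Gsdmd* did not overlap either. The ependyma markers of Cb at 1 month summed to 13.15 to 15.18 CPM and 15.54 to 20.5 CPM. Where *Nlrp3* and *Il18* did not overlap in F/M, at 1 month, the neuron markers summed to 6722 to 6768 CPM and 6820 to 7211 CPM, and the neutrophil markers to 3.35 to 3.87 CPM and 0.947 to 3.33 CPM. None of these markers was called at 1 month, and their part in the members' values was not tested. Border macrophage markers were not called in either region at 3 months, and none of the 4 neutrophil markers tested was called. The 8 neutrophil markers summed to 5.71 to 7.15 CPM in the Cb controls and to 2.03, 4.04 and 19.98 CPM in the Tpp1-/- libraries, and *Ly6g*, a defining neutrophil gene, was at 0 in all controls of that age. Other markers also separated the genotypes at 3 months. In F/M the red blood cell markers summed to 69.26 to 77.71 CPM in the controls and 34.04 to 56.17 CPM in the Tpp1-/- libraries, the oligodendrocyte markers to 6121 to 6346 CPM and 5141 to 5771 CPM, the midbrain and thalamus markers to 258.4 to 261.1 CPM and 210.3 to 239.9 CPM and the astrocyte markers to 6847 to 6997 CPM and 7054 to 7667 CPM. The cerebellar markers of F/M summed to 315.6 to 341.9 CPM and 278.6 to 309.6 CPM, and the border macrophage markers to 28.44 to 28.68 CPM and 28.78 to 35.64 CPM. In Cb the astrocyte markers summed to 5671 to 5815 CPM and 6162 to 6443 CPM, and the forebrain markers to 8.43 to 11.83 CPM and 7.32 to 8.18 CPM. Among these lists 1 of 7 astrocyte markers was called higher in each region and no other marker was called. The part of the microglia markers and of these other markers in the values of *Pycard*, *Casp1*, *Nlrp3* and *Il1a* at 3 months was not tested.

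**Figure D4:**
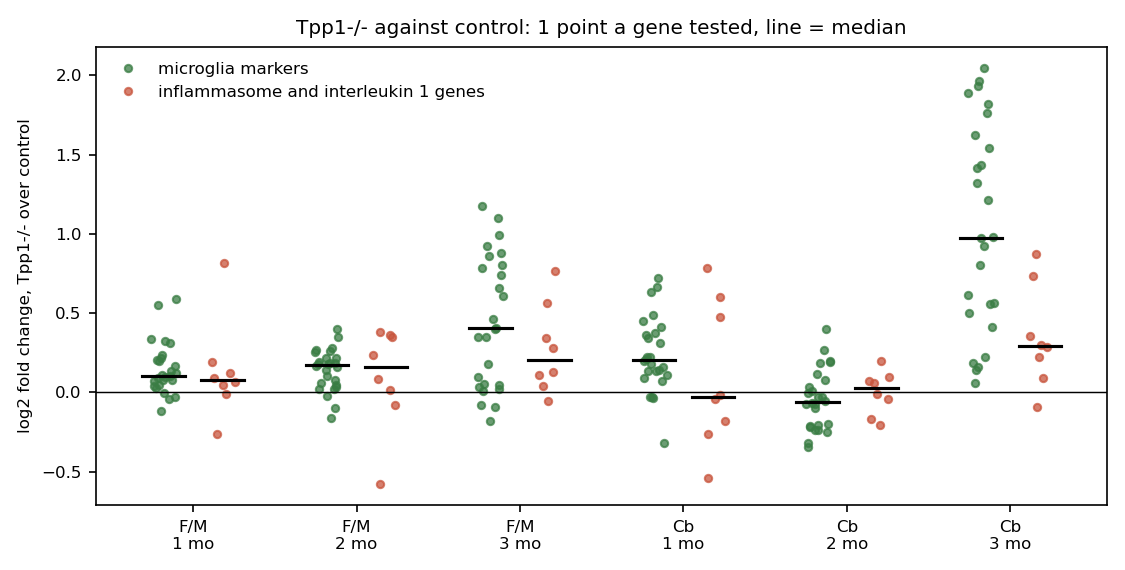
Log2 fold change of Tpp1-/- over control (vertical axis) for the 26 microglia markers (green) and the inflammasome and interleukin 1 genes tested (red) in each region and age, with the median as a black line. In Cb at 3 months the median is 0.98 for the markers and 0.29 for the members.

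Markers of other cells and tissues separated the genotypes at 2 months in both regions. In Cb the summed level of 10 midbrain and thalamus markers was 136.9 to 172 CPM in the controls and 47.01 to 67.6 CPM in the Tpp1-/- libraries, and 5 of the 10 were called lower. There the 8 neutrophil markers summed to 10.4 to 15.6 CPM and 2.55 to 6.95 CPM, and the 7 choroid plexus markers to 956.6 to 1252 CPM and 1561 to 1730 CPM. In F/M, where *Gsdmd* had its smallest adjusted p, the astrocyte markers summed to 4660 to 5630 CPM in the controls and 5932 to 7322 CPM in the Tpp1-/- libraries, and the ependyma markers to 12.8 to 17.4 CPM and 20.4 to 22.9 CPM. The midbrain and thalamus markers of F/M summed to 224.1 to 246 CPM and 281.5 to 294.4 CPM, the forebrain markers to 361.1 to 395.1 CPM and 291.6 to 337.9 CPM, and the neutrophil markers to 2.32 to 3.34 CPM and 1.83 to 2.01 CPM. The border macrophage markers of F/M summed to 31.28 to 33.86 CPM in the controls and 36.06 to 38.16 CPM in the Tpp1-/- libraries, and none of the 6 tested was called. The part of these tissues in the members' values at 2 months was not tested.

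Finally, the genes most like each member were named by the correlation of log2 CPM over the 36 libraries after the mean of each age and region was removed, among 18322 genes. These correlations are a description of libraries that share their genotype and their processing within an age. Each is among the highest of 18322, and how high such top values reach for unrelated genes was not tested. *Pycard* was most like *Rac2* (r = 0.73), *Ptpn6* (0.71) and *Treml2* (0.70), genes of blood and immune cells. *Casp1* was most like *Cept1* (r = 0.88), *Nudt10* (0.86) and *Serp1* (0.83), which are not immune genes. In Cb *Casp1* and these genes were all lowest of their age in Tpp1-/- replicate 2 at 1 month and control replicate 3 at 3 months. All were highest in Tpp1-/- replicate 1 at both ages. The part of these libraries in the correlations was not tested. *Il18* was most like *Aktip* (r = 0.89), *Arl6ip1* (0.82) and *Ciao2a* (0.82). *Nlrp3* was most like *Arhgef16* (0.69), *Tef* (0.69) and *Snhg15* (0.66). *Nlrp1b* was most like *Tcirg1* (0.64), *Gm17249* (0.63) and *Gm10548* (0.63). *Aim2* was most like *2810021J22Rik* (0.64), *Catspere2* (0.64) and *5033404E19Rik* (0.63). *Gsdmd* was most like *Gm6030* (0.69), *Fes* (0.62) and *A830019L24Rik* (0.60). Among the members themselves the highest correlation was that of *Casp1* with *Il18* (0.49), and *Pycard* reached 0.36 with *Nlrp3*.

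The correlation of the members with the mean of the 26 microglia markers, over the same 36 libraries and again as a description, depended on whether the genotype was removed too. With age and region removed it was 0.65 for *Pycard*, 0.50 for *Il1a*, 0.46 for *Nlrp3*, 0.39 for *Casp1*, 0.38 for *Il18*, 0.31 for *Aim2* and 0.28 for *Gsdmd*, and at most 0.14 for *Nlrp1b* and *Casp4*. With the genotype removed as well it was 0.74 for *Il18*, 0.47 for *Pycard*, 0.46 for *Casp1* and 0.28 for *Aim2*, and it lay between -0.06 and 0.06 for the other members.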

How the data were processed

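The deposited values are raw counts of reads for every gene in a library, whole and not normalized, which the authors made with featureCounts after alignment with STAR 2.5.2b to mm10. Per the file headers, the 1-month counts used featureCounts 1.6.3, GENCODE M21 and strand setting 1, the 2-month counts 1.6.2, M16 and setting 2, and the 3-month counts 1.6.2, M18 and setting 1. Fractional counting of reads with several matches is named, yet all values are whole. Groups came from the labels, and nothing was left out.

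The members and gene lists were chosen with earlier results of these data known. Each age was fitted by itself (12 libraries, 4 groups) with edgeR 4.0.16 in R 4.3.3: TMM, filterByExpr and the quasi-likelihood F test, two-sided, with Benjamini-Hochberg adjustment over all genes tested. Calls used the study's thresholds, a change of 1.5-fold or more and an adjusted p below 0.1, and differences of effects needed the adjusted p alone. Intervals are 95% and follow from the test. P-values rest on a spread estimated over the 12 libraries of an age together, with 3 mice in a group. For differences between ages it was estimated over all 36 libraries. Named genes were all members, the pathway genes called with genotype, and the 3 genes most correlated with each member tested at all ages. The fits were tested on simulated data. Alternatives were other scalings, no filter, DESeq2 1.42.0, limma-voom 3.58.1, sex as a covariate, a replicate block and left-out libraries.

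Same-numbered libraries were taken as paired where each pair's deviations correlate above 0.1. This held for F/M and Cb of the 1-month controls (0.124 to 0.198), where the block left the 8 calls among the members, and in no other comparison. F/M and Cb of the Tpp1-/- mice missed the limit, at 0.0947 to 0.16 at 1 month and 0.0579 to 0.0987 at 2 months. Unlike numbers reached at most 0.00844 and -0.0144 there, so these libraries may be paired too. The labels do not say which libraries share a mouse. Figures were drawn with matplotlib 3.10.9 in Python 3.11.15.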

Additional observations from a re-analysis of the deposited data

Results flagged for a closer look

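The effect of the genotype on 3 regulators of the pathway differed between ages by the test of the difference itself (edgeR over 36 libraries, adjusted over 18322 genes). For *Trim30d* in F/M the log2 effect at 3 months exceeded that at 1 month by 2.67 (adjusted p = 0.0125) and that at 2 months by 3.64 (adjusted p = 0.000908). In Cb its differences were 2.35 (adjusted p = 0.0332) and 2.32 (adjusted p = 0.00620). *Trim30a* in F/M differed by 1.65 between 3 and 1 months (adjusted p = 0.0390), while its difference of 1.36 between 3 and 2 months was not called (adjusted p = 0.129). *Irgm1* in F/M differed by 0.88 between 3 and 2 months (adjusted p = 0.0387), while its difference of 0.73 between 3 and 1 months was not called (adjusted p = 0.203). In Cb neither gene was called in a difference between ages (adjusted p from 0.176 to 0.988). None of the 9 inflammasome and interleukin 1 genes in this fit was called in such a difference, and *Il1b* was under its filter. The ages were counted with separate annotations and strand settings, so age and processing cannot be told apart. *Trim30a* and *Trim30d* lie 1.28 and 1.237 Mb from *Tpp1*, and the part of strain sequence around the targeted gene was not tested.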

How the results depend on the processing

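Of the 238 counts of members called with the genotype or in differences of its effect, the main ones included, 0 were above 0. In the region comparison the members called lower in Cb numbered 7 to 8 at 1 month, 7 to 8 at 2 months and 5 at 3 months over the alternatives, and 6 to 8, 5 to 7 and 4 to 6 with a replicate left out. The lowest of these came without F/M control replicate 2 at 1 and 2 months and without F/M control replicate 3 at 3 months, among others. Of 2192 recomputed values of single members, 136 changed sign with a replicate left out and 19 in other alternatives; 0 of these were called, and the cause was not tested. The replicate block gave 8, 7 and 5 members called between regions at the 3 ages and 0 with the genotype in each comparison. By the limit of 0.1 for each pair, replicate numbers did not pair libraries apart from the 1-month controls of both regions. Correlations of deviations ran from -0.0855 to 0.229 elsewhere. In the Tpp1-/- mice of 1 and 2 months, same-numbered F/M and Cb libraries still correlated above those of unlike numbers. Counts over all genes moved more: 127 in F/M at 2 months became 38 with the 6 libraries alone and 222 with no filter, and 148 in Cb at 3 months became 46 and 296. In F/M at 3 months 80 became 309 with the 6 libraries alone and 34 to 66 with a replicate left out, and at 1 month 2 in each region became 16 and 82 with no filter. For differences between regions with no filter, 0 became 28, 511 became 782 and 1 became 75. For differences between ages, 28, 72, 84 and 263 became 96, 254, 270 and 421 with no filter. With a replicate left out, Cb at 1 month ranged from 1 to 272, F/M at 2 months from 20 to 352, the difference between regions from 324 to 832 at 2 months and from 0 to 23 at 3 months, F/M between 3 and 1 months from 13 to 30, F/M between 3 and 2 months from 24 to 101 and Cb between 3 and 1 months from 56 to 1590, the last without the 3-month Cb Tpp1-/- replicate 1. Sex could not be a covariate at 2 months, and DESeq2 was not run for differences between ages. Low counts limit what was detectable for *Il1b*, *Il1a*, *Casp4* and *Nlrp1b*.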
